A study of Mus musculus with 4 samples.

Results

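Aldh1a3, Gc and Serpina7 are 3 of the 32285 genes counted in single cells of mouse pancreatic islets. They were chosen because their RNA in insulin-producing cells was higher in one library than in the other three, so the values that chose them are given here as a description. The study held 4 groups with 1 library each. Pax4 WT mice carried the unaltered gene for the islet transcription factor Pax4. Pax4 HH mice were homozygous for a knock-in of R200H in the mouse gene, the counterpart of R192H in people, present in every cell of the animal from conception. Both genotypes were taken at 12 weeks of age on a standard chow diet (SCD) and at 16 weeks of age, the last 4 of them on a high-fat diet (HFD), all were male and on a C57BL6/N background, and islets of 2 to 3 mice were pooled and digested with trypsin for each library. Genotype therefore cannot be told apart from the library and its pool of mice, and diet cannot be told apart from age.

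Aldh1a3 encodes a retinaldehyde dehydrogenase that makes retinoic acid, is low in mature beta cells and is widely used as a marker of beta cells that lose their mature identity in diabetes. Gc encodes the vitamin D binding protein, a plasma carrier made in bulk by the liver, whose RNA in the islet is best known from alpha cells. Serpina7 encodes thyroxine binding globulin, a serpin that carries thyroid hormone in plasma and inhibits no protease. All 3 lie on the minus strand of the mouse genome (GRCm38, with GENCODE vM21 gene spans). Aldh1a3 (ENSMUSG00000015134) spans chromosome 7, positions 66390890 to 66427517. Gc (ENSMUSG00000035540) spans chromosome 5, positions 89417522 to 89457898, and Serpina7 (ENSMUSG00000031271) spans chromosome X, positions 139079257 to 139085236.

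The 150 bases before the start sites of Gc (chr5:89457899-89458048) and Serpina7 (chrX:139085237-139085386) are shown for the 2 genes that had a promoter entry. Both are from the RefSeq promoter table of GRCm38.p6, which held 2 of the 3 genes, and are written 5′ to 3′ along the gene, with the half-site of the hepatocyte nuclear factor 1 motif, GTTAAT, in capitals.
Gc: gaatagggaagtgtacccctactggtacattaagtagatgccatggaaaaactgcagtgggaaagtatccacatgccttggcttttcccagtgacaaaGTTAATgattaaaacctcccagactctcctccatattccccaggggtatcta
Serpina7: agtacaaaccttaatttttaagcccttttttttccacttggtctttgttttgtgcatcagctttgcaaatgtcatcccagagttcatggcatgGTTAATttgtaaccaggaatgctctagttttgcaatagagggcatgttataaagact
The capitals begin 52 bases before the start of Gc and 57 bases before the start of Serpina7. On either strand, GTTAAT was held by 1218 of 32851 promoters of this length (3.71%). A near-complete hepatocyte nuclear factor 1 site, which starts with the same GTTAAT, was found in the Gc promoter and in 17 of all promoters (0.0517%). The homeodomain core TAATTA, held by 2.73% of promoters, and the Maf core TGCTGA, held by 10.1%, matched neither window. These matches describe letters only.

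The libraries held 4665 to 7123 barcodes, and 3173 WT SCD, 3162 HH SCD, 2032 WT HFD and 4385 HH HFD barcodes passed the filters on UMIs (unique molecules), genes and mitochondrial share. The WT HFD library kept the smallest share of its barcodes, at 38.3%, against 61.6% to 67.8% in the other libraries. Pairs of libraries shared 6 to 11 barcodes, at most 0.236% of the smaller library. Beta-like cells, named from their markers after clustering without Aldh1a3, Gc, Serpina7 and Ttr, numbered 2025 and 1988 under SCD and 1142 and 2851 under HFD, WT before HH. All 6 beta cell markers were detected in them in every library, and Ins2 alone was at 384116 to 403789 UMIs per 1000000. Their median depth was 26371, 26172, 29754 and 24177 UMIs per cell in the same order, so the library with the highest levels of the 3 genes was the shallowest per cell. Levels are given as counts per 1000000 UMIs (CPM) of all cells of a class in a library, with a 95% interval that covers counting error only, and no test was possible between single libraries.

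In beta-like cells Aldh1a3 was at 1.61 CPM in WT SCD (1.30 to 1.99, 88 UMIs), 1.97 CPM in HH SCD (1.61 to 2.38, 104 UMIs), 1.88 CPM in WT HFD (1.45 to 2.40, 64 UMIs) and 10.7 CPM in HH HFD (9.93 to 11.5, 757 UMIs). The first 3 libraries overlapped, and HH HFD stood above all of them. Serpina7 was also highest in HH HFD, with 4.09 CPM in WT SCD (3.57 to 4.67), 3.26 CPM in HH SCD (2.79 to 3.78), 4.76 CPM in WT HFD (4.05 to 5.55) and 26.6 CPM in HH HFD (25.5 to 27.9). Gc differed in that it was already higher in WT HFD. It was at 28.5 CPM in WT SCD (27.1 to 29.9), 30.9 CPM in HH SCD (29.4 to 32.4), 57.3 CPM in WT HFD (54.8 to 59.9) and 148 CPM in HH HFD (145 to 151), so that the 2 HFD libraries stood above the 2 SCD libraries and apart from each other.

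Under HFD the HH to WT difference was 5.68-fold for Aldh1a3 (log2 2.51, 2.14 to 2.90), 5.60-fold for Serpina7 (log2 2.49, 2.25 to 2.73) and 2.58-fold for Gc (log2 1.37, 1.30 to 1.44). All 3 genes were thus at least 2-fold higher with intervals apart, as were 0.834% of the 11394 genes in use, and since the genes were chosen on this contrast nothing is read from that count. Ranked by ratio, Aldh1a3 was 9th, Serpina7 10th and Gc 61st of these genes. Ttr, the thyroxine and retinol carrier transthyretin, went from 1344 to 2734 CPM (log2 1.02) in the same cells, while Mafa, a transcription factor of mature beta cells, went from 311 to 194 CPM (log2 -0.68) and Slc2a2, the glucose transporter, from 302 to 153 CPM (log2 -0.98). The median gene in use had a log2 difference of -0.15.

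Under SCD none of the 3 genes reached a 2-fold difference with intervals apart, as 0.0704% of 11358 genes did upward and 0.123% downward in HH. Aldh1a3 had a log2 difference of 0.29 with an interval that spans 0 (-0.14 to 0.71) but not with the looser filter on cells (0.62, 0.21 to 1.02), and Gc of 0.12 (0.02 to 0.22). Serpina7 had a log2 difference of -0.33 (-0.63 to -0.04), but its interval spanned 0 with the looser filter on cells (-0.20), with doublets kept (-0.18) and with classes set by hormone UMIs (-0.18), and 1 WT SCD cell held 24 of the 223 WT SCD UMIs. Between the diets in WT, Gc was 2.01-fold higher under HFD (log2 1.01, 0.91 to 1.11), whereas the intervals of Aldh1a3 (log2 0.22, -0.27 to 0.70) and Serpina7 (log2 0.22, -0.08 to 0.52) spanned 0. Between the diets in HH, Serpina7 was higher by log2 3.03 (2.81 to 3.27), Aldh1a3 by log2 2.44 (2.14 to 2.75) and Gc by log2 2.26 (2.18 to 2.33).

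RNA of other hormones moved with these levels in part. The summed level of the PP cell marker list in beta-like cells was 610 CPM in WT SCD, 801 CPM in HH SCD, 511 CPM in WT HFD and 1416 CPM in HH HFD, with all 5 markers detected. The alpha list, with 5 of 6 markers in the files and all detected, was at 422, 556, 272 and 524 CPM in that order, and the delta list at 81.9, 93.4, 82.7 and 215 CPM. Endothelial markers were at 5.74, 5.58, 6.58 and 9.33 CPM, also highest in HH HFD. In beta-like cells below their library's median share of Gcg, Sst and Ppy UMIs (1012, 994, 571 and 1425 cells), Aldh1a3 was at 1.07, 1.77, 1.17 and 11.9 CPM, Gc at 28.6, 30.2, 61.1 and 169 CPM, and Serpina7 at 3.68, 2.54, 4.84 and 30.6 CPM. The HH HFD level was therefore as high or higher without the cells richest in RNA of other hormones. Free RNA, estimated from insulin UMIs in endothelial-like cells, came to 0.503% to 1.5% of each gene's level in beta-like cells.

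Shares of cells with at least 1 UMI were compared after each cell had been thinned to 10000 UMIs, which left out 8 to 19 shallower beta-like cells per library. Aldh1a3 was detected in 1.54% of WT SCD, 2.02% of HH SCD, 1.85% of WT HFD and 6.92% of HH HFD beta-like cells, and Serpina7 in 2.83%, 3.08%, 4.41% and 13.5%. Both genes thus went undetected at this depth in most HH HFD cells. Gc was detected in 21.8%, 22.5%, 37.1% and 60.2% of cells. Without thinning the shares were 2.52%, 3.57%, 3.85% and 11.9% for Aldh1a3, 6.91%, 7.04%, 9.19% and 23.9% for Serpina7, and 43.0%, 43.1%, 64.1% and 77.4% for Gc, with HH HFD highest for each gene although its cells were shallowest.

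Endothelial-like cells served as the class that should lack the 3 genes, at a common depth of 3000 UMIs (median depth before thinning 6126, 5812, 7127 and 6362 UMIs). Gc was detected there in 1.56%, 0%, 0% and 4.31% of cells, against 8.35%, 8.35%, 14.2% and 28.6% of beta-like cells. Serpina7 was found in none of the 128, 89, 146 and 209 endothelial-like cells, against 1.19%, 0.956%, 1.05% and 5.82% of beta-like cells. Aldh1a3 was found in 0.478% of endothelial-like cells in HH HFD and in none elsewhere, against 0.395%, 0.503%, 0.263% and 2.56% of beta-like cells. By a limit of 3 cells, a count of 0 allows shares of up to 2.34%, 3.37%, 2.05% and 1.44% in these 4 libraries, more than the Aldh1a3 and Serpina7 shares in beta-like cells of WT SCD, HH SCD and WT HFD at 3000 UMIs. The endothelial-like cells are thus too few to bound those shares, for which the estimate of free RNA above was 0.503% to 1.11% of the beta-like level.

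**Figure D1:**
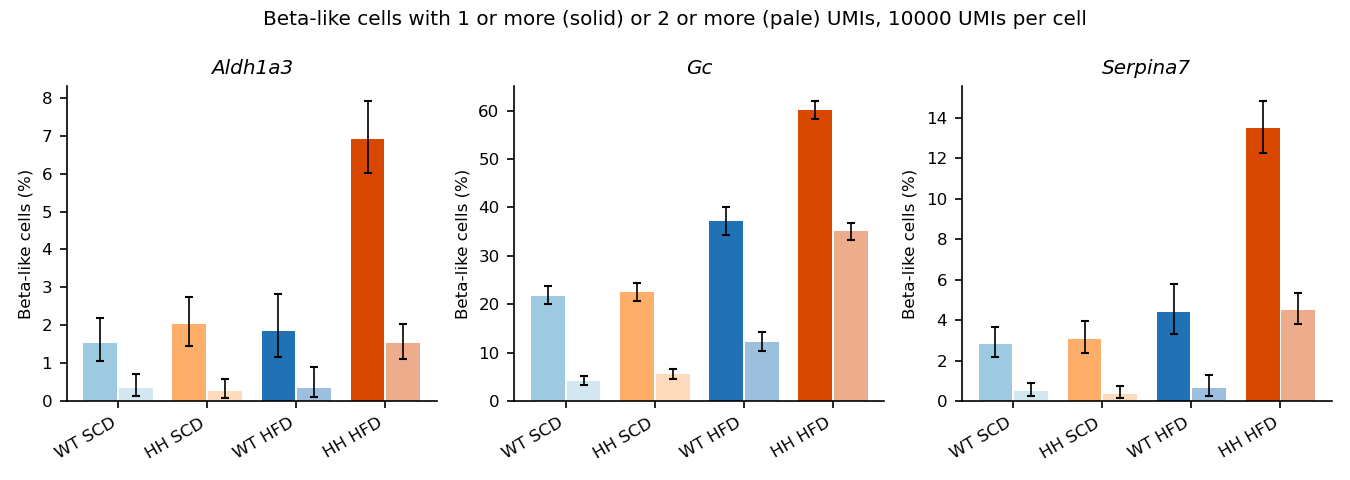
Share of beta-like cells with at least 1 UMI (solid bars) or at least 2 UMIs (pale bars) of Aldh1a3, Gc or Serpina7 (y axis, percent) in the 4 libraries (x axis), each cell thinned to 10000 UMIs. Error bars are exact binomial 95% intervals that cover counting error only, and HH HFD is highest for each gene (6.92%, 60.2% and 13.5% with at least 1 UMI).

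The number of UMIs per positive cell was highest in HH HFD for each gene, by most for Gc. Gc-positive cells held a mean of 1.25 Gc UMIs in WT SCD and 1.34 in HH SCD, and of 1.52 in WT HFD and 2.34 in HH HFD. For Serpina7 these values were 1.39, 1.11, 1.18 and 1.72, and for Aldh1a3 1.32, 1.20, 1.19 and 1.40. At least 2 Gc UMIs were held by 4.17%, 5.51%, 12.2% and 35.1% of cells, so HH HFD also had the most cells with several Gc molecules.

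The RNA of Aldh1a3 was concentrated in few cells. The 1% of beta-like cells with most Aldh1a3 UMIs held 65.9% of them in WT SCD (21 cells), 51.0% in HH SCD (20 cells), 32 of 64 in WT HFD (12 cells), and 32.2% in HH HFD (29 cells). For Serpina7 the top 1% held 42.6%, 26.2%, 36.4% and 24.2%, and the most in 1 cell was 24, 4, 11 and 32 UMIs. Gc was spread more evenly, with 8.38%, 8.95%, 7.33% and 6.13% in the top 1%. Such a share depends on the number of UMIs as well as on their spread. In WT SCD, Aldh1a3-positive beta-like cells (31 cells) also held more RNA of other hormones, with Gcg at 1981 CPM against 433 CPM in the rest and Ppy at 1597 against 485 CPM. In the other libraries Ppy was lower in Aldh1a3-positive cells, at 423 against 765 CPM in HH SCD, 257 against 408 CPM in WT HFD and 452 against 1058 CPM in HH HFD. Gcg there was at 455 against 559 CPM in HH SCD, 348 against 285 CPM in WT HFD, where the interval of the difference spanned 0, and 706 against 539 CPM in HH HFD. Serpina7-positive cells had Ppy at 2756 against 436 CPM in WT SCD and at 8134 against 524 CPM in HH SCD, but at 242 against 413 CPM in WT HFD and 974 against 1023 CPM in HH HFD. The levels in cells poor in such RNA are those given above, and its part in the concentration was not tested.

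Cells with all 3 genes were found mainly in HH HFD. At 10000 UMIs per cell, 1004 of 2832 HH HFD beta-like cells (35.5%) held none of the 3, 1417 held 1, 366 (12.9%) held 2 and 45 (1.59%) held all 3, where 16.0 cells would hold all 3 if detections were independent. In WT HFD 59.0% held none, 2.38% held 2 and no cell held all 3, where 0.344 was expected, but at 20000 UMIs 4 cells did, where 1.002 was expected, beside 83 in HH HFD, where 45.5 were expected. In the SCD libraries 74.8% (WT) and 74.1% (HH) held none, and 1 WT cell held all 3. Higher shares of each gene by themselves raise these counts, so the pairs were set against the number expected from independence within each library.

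In HH HFD Aldh1a3 and Serpina7 were detected together in 51 cells where 26.5 were expected (1.92-fold), Aldh1a3 and Gc in 156 where 118 were expected (1.32-fold), and Gc and Serpina7 in 294 where 231 were expected (1.28-fold). Gc was found in 79.6% of the 196 Aldh1a3-positive cells (73.3% to 85.0%) and in 58.8% of the 2636 others (56.9% to 60.7%). Serpina7 was found in 26.0% of Aldh1a3-positive cells (20.03% to 32.8%) and in 12.6% of the others (11.4% to 13.9%). Cells with any 1 of the genes were thus richer in both others, with intervals apart. At 3000 UMIs, however, the HH HFD intervals of Aldh1a3 and Gc overlapped in both directions. In WT HFD, Gc was found in 47.6% of Aldh1a3-positive and 36.9% of Aldh1a3-negative cells, and the corresponding shares were 19.4% and 21.8% in WT SCD and 32.5% and 22.3% in HH SCD, with intervals that overlapped in each library. Aldh1a3 and Serpina7 were together in 4 HH SCD cells where 1.23 were expected (3.25-fold), and in 1 cell each of WT SCD and WT HFD, also with overlapping intervals. Some of these pairs came apart at other depths. At 20000 UMIs Serpina7 was in 21.4% (8.30% to 41.0%) of Aldh1a3-positive and 5.98% (4.57% to 7.66%) of other WT HFD cells, and without thinning Gc was in 57.7% (45.4% to 69.4%) of Aldh1a3-positive and 42.5% (40.3% to 44.8%) of other HH SCD cells, and in 55.7% (47.1% to 64.1%) of Serpina7-positive cells there against 42.1% (39.8% to 44.4%) of the others. Split by detection without thinning, HH HFD cells with Aldh1a3 (340 cells) had a median of 27914 UMIs and those without it (2511 cells) 23645. That split itself favours deep cells and differs from the groups of 196 and 2636 cells above, whose remaining depth was not measured.

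**Figure D2:**
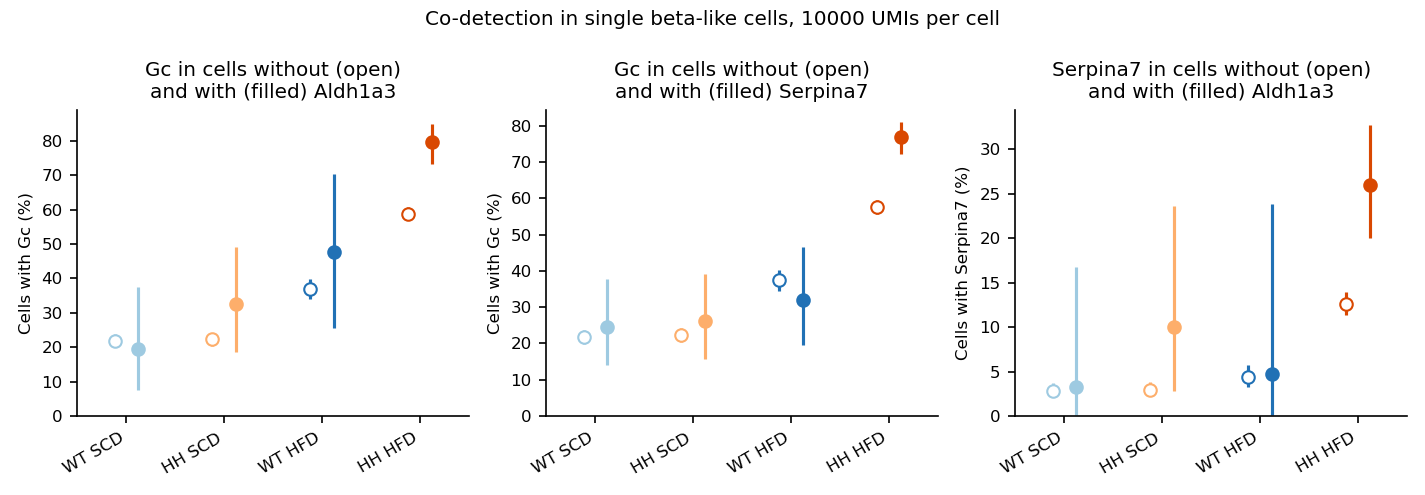
Share of beta-like cells with the second gene of a pair (y axis, percent) among cells with (filled) and without (open) the first gene, by library (x axis), at 10000 UMIs per cell, with exact binomial 95% intervals. In HH HFD the intervals with and without the first gene are apart for all 3 pairs, for example 79.6% against 58.8% for Gc by Aldh1a3.

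Beta-like cells fell into several clusters, and the 3 genes, which had no part in the clustering, differed between them. One cluster held 1453 of the HH HFD cells (51.0%), 36 of the WT HFD cells (3.15%) and 8 and 12 of the WT and HH SCD cells, and with 1 library per group it may be that library rather than a kind of cell. In its HH HFD cells Aldh1a3 was at 14.9 CPM, Gc at 192 CPM and Serpina7 at 36.8 CPM. Its 36 WT HFD cells were also above the WT HFD mean, with Aldh1a3 at 7.07 CPM (3.23 to 13.4), Gc at 108 CPM (90.4 to 127) and Serpina7 at 18.1 CPM (11.5 to 27.1).

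Another cluster, with 540 WT HFD and 874 HH HFD cells, allowed the genotypes to be set side by side. There Aldh1a3 went from 2.05 CPM in WT to 3.98 CPM in HH (log2 0.96, 0.33 to 1.62), Gc from 64.1 to 85.5 CPM (log2 0.42, 0.30 to 0.53) and Serpina7 from 3.90 to 8.24 CPM (log2 1.08, 0.63 to 1.54). Each gene was higher in HH within this cluster, by less than over all beta-like cells. In yet another cluster, of 427 WT HFD and 285 HH HFD cells, Serpina7 was higher by log2 0.72 (0.12 to 1.32), and the intervals of Aldh1a3 (log2 0.53, -0.72 to 1.73) and Gc (log2 0.13, -0.06 to 0.32) spanned 0. Observed over expected co-detection was lower within the cluster that held most HH HFD cells, at 1.18 for Aldh1a3 with Serpina7, 1.19 for Aldh1a3 with Gc and 1.14 for Gc with Serpina7. There the intervals of Serpina7 in cells with Aldh1a3 (24.7%, 18.1% to 32.3%) and without it (20.5%, 18.4% to 22.8%) overlapped, while those of the other pairs stayed apart. In the HH HFD cells of the next largest cluster (873 cells) the ratios were 1.04 for Aldh1a3 with Gc, 2.42 for Aldh1a3 with Serpina7, from 3 cells with both, and 1.21 for Gc with Serpina7, and the intervals overlapped for all 3 pairs.

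One further cluster, with 213, 193, 70 and 137 cells of the 4 libraries, had the highest Aldh1a3 of the larger SCD clusters. There Aldh1a3 was at 7.59 and 6.48 CPM in the WT and HH SCD libraries and at 4.61 and 11.5 CPM in those of HFD, against 1.22 and 1.68 CPM in the largest cluster of WT SCD and HH SCD. Serpina7 was there at 17.6, 11.0, 8.64 and 51.0 CPM, and Gc at 27.3 and 26.2 CPM in WT SCD and HH SCD, 36.3 CPM in WT HFD and 110 CPM in HH HFD. Set against all beta-like cells of the same library, with intervals apart, Aldh1a3 was higher in this cluster in WT SCD and HH SCD, Serpina7 was higher in WT SCD, HH SCD and HH HFD, and Gc was lower in WT HFD and HH HFD. The other intervals overlapped, and the WT HFD value of Aldh1a3 rests on 8 UMIs.

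The levels were then read across beta-like cells grouped by their UMIs of Mafa, at 10000 UMIs per cell. In HH HFD Aldh1a3 was at 17.0 CPM in the 812 cells with no Mafa UMI, 8.58 CPM with 1 to 2, 5.71 CPM with 3 to 5 and 1.58 CPM in the 253 cells with 6 or more. Serpina7 went from 41.7 over 22.4 and 8.18 to 5.93 CPM and Gc from 184 over 143 and 102 to 90.5 CPM in the same order. All 3 genes were highest where Mafa was not detected, with log2 differences between the outer groups of 3.43 (2.04 to 5.32) for Aldh1a3, 2.82 (2.07 to 3.67) for Serpina7 and 1.02 (0.82 to 1.23) for Gc. The low Aldh1a3 value rests on 4 UMIs, and at 20000 UMIs per cell the outer groups were at 16.2 and 5.94 CPM, a log2 difference of 1.45. In WT HFD Gc was at 54.9, 57.9, 59.1 and 49.7 CPM and in WT SCD at 28.7, 27.5, 27.0 and 27.0 CPM, with overlapping outer intervals. In HH SCD it went from 33.6 (26.5 to 42.0) over 31.5 and 30.6 to 25.2 CPM (20.6 to 30.6), in the HH HFD order but also with outer intervals that overlapped. Serpina7 was higher without Mafa in these libraries too, at 9.24 against 0.535 CPM (1 UMI) in WT HFD, 15.2 against 1.56 CPM in WT SCD and 8.73 against 2.16 CPM in HH SCD. Aldh1a3 was at 8.97 CPM without Mafa in WT SCD (5.48 to 13.9) and at 0.391 CPM with 6 or more Mafa UMIs (0.0473 to 1.41), the latter from 2 UMIs, while the outer intervals overlapped in HH SCD (3.93, 1.80 to 7.46, against 1.44 CPM, 0.529 to 3.14) and in WT HFD (5.43, 2.61 to 9.99, against 1.60 CPM, 0.331 to 4.69). At 20000 UMIs per cell the WT HFD outer groups were apart, at 10.2 (5.08 to 18.2) and 1.46 CPM (0.796 to 2.44).

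**Figure D3:**
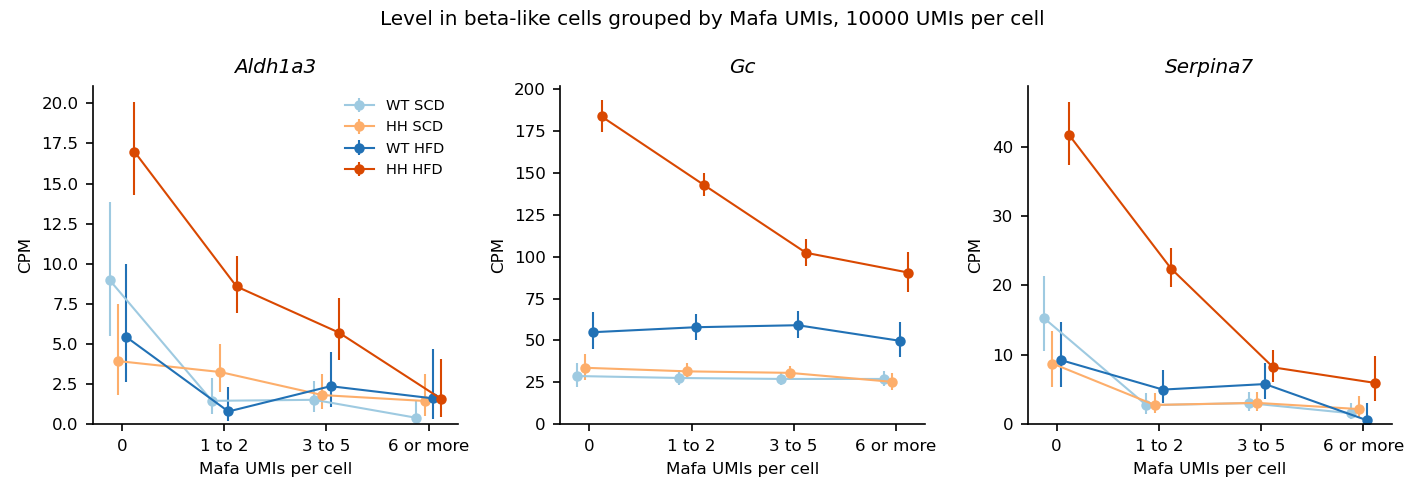
Level of each gene (y axis, CPM) in beta-like cells grouped by their Mafa UMIs (x axis) at 10000 UMIs per cell, 1 line per library, with Poisson 95% intervals. In HH HFD all 3 genes fall from the cells without Mafa to those with 6 or more (Gc 184 to 90.5 CPM), while Gc is level in WT HFD.

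Correlations over the 2851 HH HFD beta-like cells, which share a library and differ in depth, were computed with 10056 genes detected in at least 5% of cells. In sparse counts a weak correlation is no finding, and the values serve to name the genes whose pattern was most like each of the 3. Ribosomal protein genes, of which 3, 2 and 1 stood among the 10 highest of Gc, Aldh1a3 and Serpina7, are left out of the names. For Gc the 10 highest of the rest were Scg2 (r = 0.43), Ttr (0.43), Ssr4 (0.42), Dapl1 (0.37), Iapp (0.36), Eef1b2 (0.34), Eef1a1 (0.33), Tpt1 (0.32), Tmed3 (0.32) and Scg5 (0.31). Scg2 and Scg5 encode secretory granule proteins, Ssr4 a subunit of the translocon-associated complex of the endoplasmic reticulum, Iapp the hormone amylin, and Eef1b2 and Eef1a1 translation elongation factors. Scg2 was at 4342 CPM in cells with Gc and 3397 CPM in cells without, Ttr at 2901 against 1863 CPM, Ssr4 at 1161 against 896 CPM and Dapl1 at 341 against 187 CPM. Gcg, the glucagon gene, was at 552 CPM in cells with Gc and at 549 CPM in cells without, at 276 against 293 CPM in WT HFD, at 508 against 443 CPM in WT SCD and at 716 against 511 CPM in HH SCD. Ppy, the pancreatic polypeptide gene, was at 1147 CPM in HH HFD cells with Gc against 818 CPM without, at 836 against 409 CPM in WT SCD, at 1304 against 600.3 CPM in HH SCD and at 233 against 506 CPM in WT HFD.

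For Serpina7 the highest correlations were with Gc (r = 0.30), Scg2, Iapp and Scg3 (0.29 each), Ssr4 and Rgs2 (0.27 each), Scg5 and Bambi (0.25 each), Dapl1 (0.24) and Tmed3 (0.23). For Aldh1a3 they were with Gc (0.22), Scg2 and Serpina7 (0.18 each), Ttr, Ssr4 and Iapp (0.17 each), Rgs2 (0.16), Inhba and Eef1b2 (0.15 each) and Rack1 (0.14). Iapp, Scg2 and Ssr4 stood among the 10 named for all 3 genes, and the pairs of genes shared 5 or 6 of 10. Inhba, which encodes the activin A subunit, was at 14.8 CPM in cells with Aldh1a3 and at 4.74 CPM in cells without. Rgs2, a regulator of G protein signalling, was at 424 against 239 CPM. Bambi, a decoy receptor of the TGF-beta family, was at 103 CPM in cells with Serpina7 and 67.3 CPM in cells without.

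The lowest correlations of Gc were with the immediate early genes Fosb (r = -0.33), Egr1 and Jun (-0.29 each), with Trpm5, a cation channel (-0.28), and with Acly, an enzyme that supplies acetyl-CoA to lipid synthesis (-0.27). Jun was at 335 CPM in cells with Gc and 517 CPM in cells without. For Serpina7 the lowest were Mafa (-0.26), Cox6a2 and Ins1 (-0.22 each), Trpm5 (-0.21) and Acly (-0.20). For Aldh1a3 they were Cox6a2 (-0.17), Trpm5 (-0.15), and Fosb, Slc2a2 and Mafa (-0.14 each). Mafa was at 119 CPM in cells with Aldh1a3 against 213 CPM in cells without, and at 122 against 220 CPM by Serpina7.

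The named genes were picked by their correlation in HH HFD, so that library is bound to lie far from 0 for them, and nothing is read from its lead. Serpina7 with Ins1 was at -0.29 in HH SCD against -0.22 in HH HFD, and Aldh1a3 with Mafa at -0.14 in both WT SCD and HH HFD. Over all 10056 genes of HH HFD, the number of genes with r of 0.2 or more was 113 for Gc, 22 for Serpina7 and 1 for Aldh1a3, and in the other libraries it was 0 except for 5 with Serpina7 in HH SCD. Gc with Scg2 had r of 0.05, 0.11 and 0.13 in WT SCD, HH SCD and WT HFD, and Gc with Mafa -0.04, -0.03 and 0.04, against -0.25 in HH HFD. Fewer UMIs of a gene lower such a value by themselves. After thinning to 10000 UMIs per cell, r in HH HFD was 0.16 between Aldh1a3 and Gc, 0.12 between Aldh1a3 and Serpina7 and 0.21 between Gc and Serpina7. Ribosomal protein genes made up 30 of the 50 genes most correlated with Gc, 20 of those with Aldh1a3 and 19 of those with Serpina7.

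**Figure D4:**
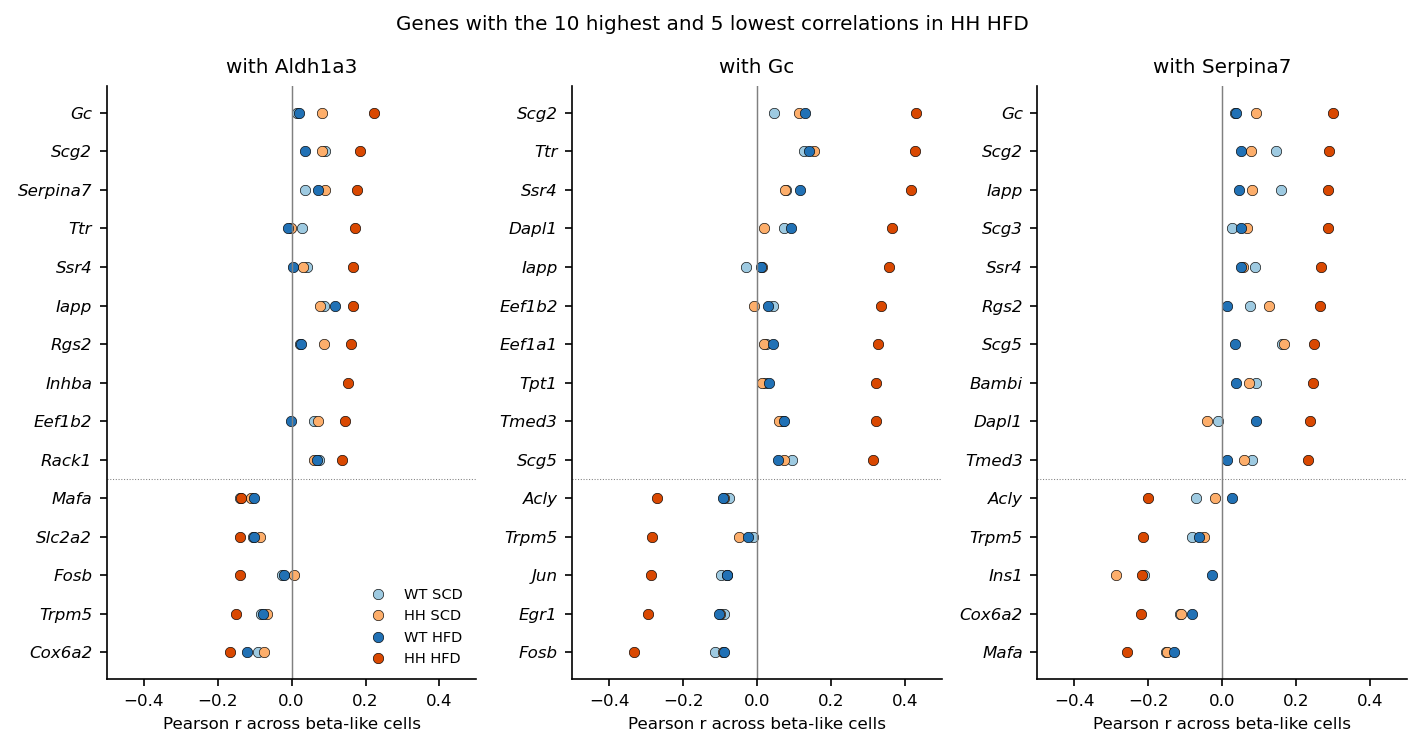
Pearson correlation across beta-like cells (x axis) of each gene with the genes that had its 10 highest and 5 lowest values in HH HFD (y axis), 1 point per library. The HH HFD points, by which the genes were picked, run from -0.33 with Fosb to 0.43 with Scg2 for Gc.

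Outside beta-like cells the 3 genes had different homes. In alpha-like cells (410, 483, 291 and 523 cells) Gc was at 160 CPM in WT SCD (149 to 171), 160 CPM in HH SCD (149 to 170), 166 CPM in WT HFD (155 to 178) and 176 CPM in HH HFD (165 to 187). All 4 intervals overlapped, and the HH to WT log2 difference under HFD was 0.09 (-0.05 to 0.22). In delta-like cells Gc was at 149, 132, 208 and 207 CPM, with log2 differences between the diets of 0.48 in WT and 0.65 in HH, and of -0.01 between the genotypes under HFD. In PP-like cells it was at 208 (188 to 229), 149 (133 to 167), 218 (194 to 243) and 185 CPM (168 to 204), lower in HH SCD than in WT SCD by log2 -0.48 (-0.70 to -0.26). That difference shrank to -0.18 (-0.35 to -0.01) when doublets were kept and to -0.16 (-0.32 to 0.01), an interval that spans 0, at Leiden resolution 2.

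Gc thus ran in the order PP, alpha, delta, beta in WT SCD, where alpha (149 to 171) and delta (136 to 162) overlapped. In HH HFD the order was delta at 207 CPM (189 to 226), PP at 185 CPM, alpha at 176 CPM and beta at 148 CPM, in which delta overlapped PP, PP overlapped alpha, and beta stayed below alpha. Beta-like cells of WT HFD, at 57.3 CPM, were far below the other endocrine classes, of which alpha, at 166 CPM, was the lowest.

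Serpina7 was highest in PP-like cells, at 36.4 CPM in WT SCD (28.4 to 46.0), 42.9 in HH SCD (34.5 to 52.7), 25.2 in WT HFD (17.7 to 34.9) and 32.2 in HH HFD (25.3 to 40.4). In alpha-like cells it was at 9.85 (7.33 to 12.9), 16.1 (12.9 to 19.8), 9.18 (6.67 to 12.3) and 19.4 CPM (15.9 to 23.4), from 51, 89, 44 and 109 UMIs. The HH to WT log2 difference in alpha-like cells was 1.08 (0.56 to 1.62) under HFD and 0.71 (0.19 to 1.23) under SCD. The SCD interval spanned 0 under 4 alternatives, at 0.30 with the looser filter on cells, 0.44 with doublets kept, 0.44 at Leiden resolution 2 and 0.38 with classes set by hormone UMIs. The HFD difference passed 2-fold with intervals apart, as did 0.381% of 12080 genes in alpha-like cells, but was short of 2-fold at 0.83 with the looser filter. The SCD difference was short of 2-fold, which 0.256% of genes reached. In HH HFD the order was PP, beta at 26.6 CPM, alpha, and delta at 5.01 CPM (2.59 to 8.75), and PP and beta overlapped. In WT HFD alpha stood above beta, at 9.18 against 4.76 CPM. Delta-like cells held 9, 8, 3 and 12 Serpina7 UMIs.

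Aldh1a3 was nearly absent from alpha-like and PP-like cells. Alpha-like cells held 1 UMI in each SCD library and 0 in each HFD library, which allows at most 0.626 CPM in WT HFD and 0.534 CPM in HH HFD by a limit of 3 counts. PP-like cells held 1 UMI, in HH SCD. Delta-like cells had Aldh1a3 at 3.99 CPM in WT SCD (2.18 to 6.70), 3.04 in HH SCD (1.46 to 5.59), 3.98 in WT HFD (1.72 to 7.85) and 1.67 in HH HFD (0.455 to 4.27), from 14, 10, 8 and 4 UMIs, and these intervals overlapped. Delta-like cells were above beta-like cells in WT SCD and overlapped with them in HH SCD and WT HFD, while in HH HFD beta-like cells, at 10.7 CPM, stood above delta-like cells.

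**Figure D5:**
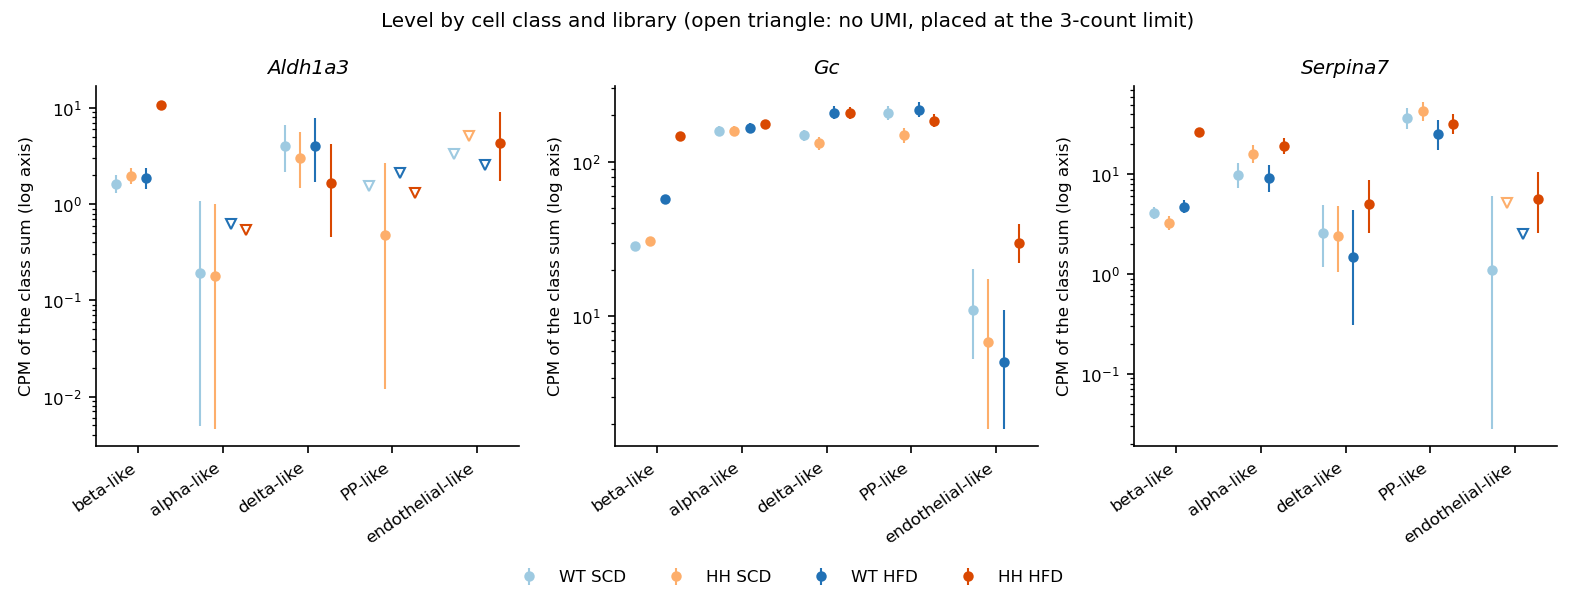
Level of each gene (y axis, CPM, log scale) in beta-like, alpha-like, delta-like, PP-like and endothelial-like cells (x axis) of the 4 libraries, with Poisson 95% intervals, open triangles marking classes with no UMI at the limit of 3 counts. Gc is near 160 to 176 CPM in alpha-like cells of every library, and in beta-like cells HH HFD is highest for each gene.

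Non-endocrine cells held few UMIs of the 3 genes. Endothelial-like cells held 10, 4, 6 and 48 Gc UMIs, or 11.0, 6.81, 5.06 and 29.97 CPM, no Aldh1a3 UMI outside HH HFD, where there were 7, and 1, 0, 0 and 9 Serpina7 UMIs. Under HFD, Gc in endothelial-like cells was higher in HH by log2 2.57 (1.34 to 4.08), and 1.86% of 12387 genes were higher there by 2-fold or more with intervals apart. In HH HFD, 15 of the 209 endothelial-like cells had over 1000 insulin UMIs, and these held 41 of the 48 Gc UMIs, all 9 Serpina7 UMIs and 3 of the 7 Aldh1a3 UMIs, against a median of 70 insulin UMIs in the class. Under the looser filter on cells the difference was 0.04 and with doublets kept 0.12. Over all non-endocrine classes of HH HFD (412 cells), 41 cells with over 1000 insulin UMIs held 125 of 139 Gc UMIs, 15 of 21 Aldh1a3 UMIs and 14 of 17 Serpina7 UMIs. In WT SCD, 4 stromal-like cells of 33 held 1 Aldh1a3 UMI each, and none of the 4 insulin-rich cells of that class was among them.

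Genes of the pathways that the 3 proteins serve were read from lists, again over beta-like cells with a mean of at least 1 CPM. Of the retinoid list 26 genes were in the files and 8 in use, and none differed by 2-fold between HH and WT under HFD. Rbp4, the plasma retinol carrier, went from 10.7 to 13.8 CPM (log2 0.37), and Rara, a retinoic acid receptor, was lower by log2 -0.88. The vitamin D list had 3 of 14 genes in use and none at 2-fold, with the receptor Vdr at 123 CPM in WT HFD and 68.7 CPM in HH HFD (log2 -0.84). In the thyroid hormone list, 1 of 10 genes in use passed 2-fold, against 0.834% of all genes higher and 0.439% lower, namely Ttr, while the deiodinase Dio1 went from 49.9 to 64.8 CPM (log2 0.38) and the receptor Thra had log2 -0.68. Of the serpin list 7 of 26 were in use and none passed under HFD, so no listed serpin other than Serpina7 was called on that diet.

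The list of genes linked to loss of beta cell identity had 11 of 24 genes in use, and 3 were higher by 2-fold under HFD, against 0.834% of all genes. These were Gast, the fetal islet hormone gastrin, from 0.646 to 1.88 CPM (log2 1.54), Aass, a lysine-degrading enzyme, from 1.09 to 2.76 CPM (log2 1.35), and Cd9, a tetraspanin, from 1.03 to 2.17 CPM (log2 1.08), all at low levels. Gast was below 1 CPM in WT HFD and in use only through its HH HFD level, so nothing is read from its call. Without a fold limit 6 of the 11 were higher with intervals apart, against 7.21% of all genes, and under SCD 1 of 9, against 2.93%, and the median of the list under HFD was log2 0.39. Gast, Aass and Cd9 were not in use under SCD, so these counts cover different genes on each diet. Of 15 genes of mature beta cells, all in use, 1 was lower by 2-fold, as were 0.439% of all genes, namely Trpm5, from 114 to 45.1 CPM (log2 -1.34). Without a fold limit 13 of the 15 were lower with intervals apart under HFD, against 29.3% of all genes, and 11 of the 15 under SCD, against 17.7%. Intervals narrow as UMIs rise, so genes with many UMIs come apart at smaller differences, and these shares do not set like against like. The median of the list was log2 -0.34 under HFD and -0.14 under SCD, against -0.15 and -0.09 for all genes. Of 7 alpha cell genes in use other than the 3, Ttr alone passed 2-fold, against 0.834% of all genes higher and 0.439% lower. It is the gene already counted in the thyroid hormone list. Without a fold limit 3 of the 7 were higher and 3 lower with intervals apart, against 7.21% and 29.3% of all genes. The median of this list under HFD was log2 -0.17.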

How the data were processed

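Islet cells were profiled with the 10x Genomics 3′ v3.1 kit, 1 library for each of 4 groups. The authors made the deposited UMI counts per gene and barcode with Cell Ranger (version 6.0 in the submitters' processing notes) on mm10, with no normalisation, and 68011082 to 104810105 UMIs were present per library. Barcodes with 3000 to 50000 UMIs, 2000 to 5000 genes and at most 10% mitochondrial UMIs were kept. Doublets were taken by the highest Scrublet scores, at 0.8% per 1000 cells, since the automatic threshold marked too few. Cells were clustered with scanpy 1.11.5 and igraph 0.11.9 (3000 variable genes without Aldh1a3, Gc, Serpina7 and Ttr, 30 components, 20 neighbours, Leiden resolution 1), which gave 22 clusters, of which 1 stayed unnamed. A class needed at least 3 detected markers. UMIs were summed per class and library, and exact Poisson and Clopper-Pearson intervals were computed with scipy 1.17.1. There was 1 library per group, so no test was run. A gene was in use at a mean of 1 CPM and called at 2-fold with intervals apart. Named genes were the 3 genes, the 10 highest and 5 lowest correlations in HH HFD (mitochondrial and ribosomal protein genes counted but not named), list members at 2-fold, and Mafa, Slc2a2, Ttr and Gcg for reference. Rbp4, Rara, Vdr, Dio1, Thra and Mki67 were added after their values were seen. The genes and lists were chosen with earlier results of these data known, and the doublet quota and the rule for naming clusters were set after a first version had been seen. Scripts were tested on simulated data. Alternatives covered filters, doublets, clustering, free RNA, scaling, thinning and thresholds.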

Additional observations from a re-analysis of the deposited data

Results flagged for a closer look

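Serpina7 in beta-like cells had differences of opposite sign between the genotypes on the 2 diets, with a log2 HH over WT difference of -0.33 under SCD and 2.49 under HFD. It stood out because the only HH and WT libraries of one diet differed one way and those of the other diet the opposite way. With single libraries no test of that contrast was possible, so it was not tested, and the SCD value lay between -0.53 and -0.18 over the alternatives, with an interval that spanned 0 under 3 of them (looser filter on cells, doublets kept, classes set by hormone UMIs).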

How the results depend on the processing

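In beta-like cells every HH over WT estimate kept its sign under every alternative run, but under SCD the interval of Serpina7 spanned 0 under 3 of them and that of Aldh1a3 left 0 under the looser filter. No interval was computed for free RNA subtracted, the other scalings, equal weight or cells below the median share of other hormones. The log2 HH over WT difference ranged from 2.27 to 3.35 for Aldh1a3, 1.28 to 1.51 for Gc and 2.32 to 2.66 for Serpina7 under HFD, and from 0.28 to 0.73, 0.08 to 0.21 and -0.53 to -0.18 under SCD. In beta-like cells below the median share of other hormones Aldh1a3 came to 0.73 (SCD) and 3.35 (HFD) and Gc to 1.46 (HFD), and Gc under HFD was 1.51 with median-of-ratios size factors and 1.28 with equal weight for each cell. The log2 ratio of detected shares under HFD was 1.90 for Aldh1a3 (3.28 at 3000 UMIs), 0.70 for Gc (1.01 at 3000 UMIs, 0.50 at 20000 UMIs, 0.27 without thinning, 1.53 for at least 2 UMIs) and 1.62 for Serpina7 (2.47 at 3000 UMIs, 2.87 for at least 2 UMIs). The Aldh1a3 value at 3000 UMIs rests on 3 positive cells of 1142 in WT HFD. At 3000 UMIs co-detection over expectation in HH HFD was 3.53 for Aldh1a3 with Serpina7, from 15 cells where 4.25 were expected, and 1.83 for Gc with Serpina7. For Aldh1a3 with Gc it was 1.44, and the intervals of that pair overlapped in both directions. The Aldh1a3 difference between the outer Mafa groups was 1.45 at 20000 UMIs. Of the list genes, 4 were higher and 1 lower, and these counts were 7 and 6 at 1.5-fold. At a mean of at least 5 CPM 1 was higher, namely Ttr, since Gast, Aass and Cd9 lay below that mean. The shares of all genes at these other thresholds are not given here, so nothing is read from the counts. The cause of these shifts was not tested. No paired analysis was possible because each group had 1 library, and for the same reason no replicate could be left out. At 10000 UMIs most cells of every library held no UMI of Aldh1a3 or Serpina7, which limits what single cells can show of them.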

Other observations

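A small beta-like cluster led by cell cycle genes held 62 cells, 46 of them from HH HFD. In these 46 cells Aldh1a3 was at 19.3 CPM, Gc at 211 CPM and Serpina7 at 32.6 CPM. Over all HH HFD beta-like cells Mki67, a proliferation marker, was at 12.8 CPM in cells with Aldh1a3 and 5.61 CPM in cells without, and at 8.33 CPM in cells with Gc against 2.75 CPM in cells without. By Serpina7 it was at 4.96 against 6.29 CPM. In the other libraries Mki67 by Gc was at 0.228 against 2.48 CPM in WT SCD, the opposite order. It was at 4.04 against 1.76 CPM in HH SCD and 3.56 against 0.842 CPM in WT HFD. Mki67 was looked at after these cluster values were seen. By detection without thinning, the 2207 HH HFD cells with Gc had a median of 25361 UMIs and the 644 without it 20318. The Mki67 values by Gc in HH HFD rest on a split after thinning, into 1705 and 1127 cells, whose depth was not measured.

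Over all deposited barcodes, before any filter, WT SCD held 121 Aldh1a3 UMIs, HH SCD 158, WT HFD 134 and HH HFD 904. For Gc these totals were 4084, 3968, 4620 and 14864, and for Serpina7 435, 435, 336 and 2359. Per 1000 Gcg UMIs, Gc had 0.543, 0.570, 0.497 and 0.582 UMIs in alpha-like cells and 67.7, 55.7, 211 and 283 in beta-like cells.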
